A study of Mus musculus with 2 samples.

Results

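The 8 genes described here encode the transcription regulators that set plasma cell identity. They are Prdm1, Irf4, Xbp1, Pou2af1, Pou2f2, Ell2, Ikzf1 and Ikzf3, and they were taken by name from the 43346 features of the deposited gene table, where all 8 were found. Total RNA was made from X63/0 (X63-Ag8.653), a mouse plasmacytoma line, in a culture without treatment and in one harvested 3 h after cycloleucine was added to 30 mM (the treated library). Cycloleucine is an amino acid analogue that blocks the synthesis of S-adenosylmethionine, the methyl donor of the cell. Ribosomal RNA was removed, and the libraries were read on an Ion Proton. Both cultures were of this 1 line, which is a tumour and not a normal plasma cell, and the labels do not say whether the untreated culture received medium in place of the cycloleucine stock. The submitters describe a triplicated experiment, but 1 library per condition was analysed here, so no test between conditions could be made, and every interval below covers counting error alone. In such bulk RNA, a change in the number of cells of a kind cannot be told apart from a change in the RNA of each cell.

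A B cell that becomes a plasma cell closes its B cell program and opens one for secretion. Irf4 encodes a factor that is needed for this step and for plasma cell survival. Prdm1 encodes BLIMP-1, a repressor that shuts off B cell genes, and Xbp1 encodes the factor that expands the endoplasmic reticulum. Pou2f2 encodes OCT2, which binds the octamer of immunoglobulin promoters, and Pou2af1 encodes OCA-B, the coactivator that joins OCT factors there. Ell2 encodes an elongation factor that favours the secreted form of immunoglobulin heavy chain mRNA. Ikzf1 and Ikzf3 encode the zinc finger factors IKAROS and AIOLOS, which are the targets of cereblon-directed myeloma drugs.

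Xbp1 makes its active protein only after the kinase and nuclease IRE1 cuts a short segment out of the mRNA in the cytoplasm. The site is shown because the deposited values give Xbp1 reads as a whole and do not separate the cut from the uncut form. IRE1 cuts after the third base of a 7-base loop with the letters CNGCNGN. In the longest annotated Xbp1 mRNA of GENCODE M21, 2 such loops closed by a stem of at least 5 base pairs were found (up to 2 unpaired bases were allowed on the 5′ side), and the segment between their cuts was 26 bases long. It lies in exon 4, at chr11:5524279-5524304 in mm10 on the plus strand, and none of the 4 annotated Xbp1 transcripts has an intron of that length. The stretch chr11:5524239-5524344 reads as follows, with the segment in capitals.

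Xbp1: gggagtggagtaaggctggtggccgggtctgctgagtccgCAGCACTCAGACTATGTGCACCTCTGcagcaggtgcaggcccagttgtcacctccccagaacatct

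The start regions of Pou2f2 and Pou2af1 are shown because these genes encode partners and their exon reads differed by unlike amounts between the libraries. The sequences are from RefSeq (GRCm38.p6, the assembly of mm10) and run from 250 bases before to 50 bases after an annotated start. The Pou2f2 stretch is chr7:25132411-25132710 on the minus strand and covers 1 start of this gene, and that of Pou2af1 is chr9:51213440-51213739 on the plus strand. The Pou2f2 start shown lies inside the gene, whose deposited region on this strand begins at 25159922. In GENCODE M21 the gene begins farther upstream, at 25179726, outside the deposited region. Whether that start is used in these cells was not tested. Capitals mark matches, on either strand, to the 7 motifs searched: the octamer ATGCAAAT, an interferon regulatory factor repeat GAAANNGAA, an ETS-IRF composite GGAANNGAA, a BLIMP-1 core GTGAAAG, an IKAROS core TGGGAA, an unfolded protein response core TGACGTG and a TATA box TATAAA.

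Pou2f2: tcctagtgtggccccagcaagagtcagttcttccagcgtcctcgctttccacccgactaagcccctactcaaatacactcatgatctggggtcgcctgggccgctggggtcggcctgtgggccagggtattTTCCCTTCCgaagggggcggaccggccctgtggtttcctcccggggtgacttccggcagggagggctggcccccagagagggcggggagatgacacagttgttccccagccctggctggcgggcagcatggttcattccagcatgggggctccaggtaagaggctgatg

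Pou2af1: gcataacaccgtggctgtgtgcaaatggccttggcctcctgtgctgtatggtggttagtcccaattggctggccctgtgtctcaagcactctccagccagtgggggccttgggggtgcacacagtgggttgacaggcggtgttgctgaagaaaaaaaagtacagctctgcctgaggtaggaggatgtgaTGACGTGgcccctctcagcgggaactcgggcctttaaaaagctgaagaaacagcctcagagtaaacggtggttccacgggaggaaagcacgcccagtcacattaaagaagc

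RefSeq start regions were found for 7 of the 8 genes, 8 regions in all. The Pou2f2 region held the ETS-IRF composite at -119 from the start, with its letters on the opposite strand, and 8.24% of all 32851 regions of this length hold that motif. The Pou2af1 region held the unfolded protein response core, a sequence that XBP1 and ATF6 can bind, at -61, and 2.01% of all regions hold it. Of the other members, Irf4 had a TATA box at -26 (13.6% of all regions), and Prdm1 and Xbp1 had the IKAROS core (25.6%). The octamer, which 1.74% of all regions hold, the interferon regulatory factor repeat (8.56%) and the BLIMP-1 core (4.24%) were in none of the 8. No match overlapped another. These are matches of letters in 1 window per start and say nothing of binding.

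The cultures had most of the plasma cell markers listed, and also some B cell markers. Reads in genes numbered 27127865 for the untreated and 31951946 for the treated library, of which 48.4% and 49.4% lay in exons. These shares are over all 43346 features, of which 29646 have an annotated transcript, so the remainder is not intron reads of annotated genes alone. Of 13 plasma cell markers found by name, 9 were measured, led by Mzb1 at an RPKM (reads scaled to exon length and library size) of 398 and 401 and by the J chain gene Igj at 165 and 166 in the untreated and treated libraries. Cd38 had 4 and 2 exon reads, Derl3 26 and 22, Cd93 7 and 11, and Ly6c2 3 and 14, so these markers were all but absent. Of the 12 B cell markers 3 were measured, among them Cd79b at an RPKM of 50.5 and 52.6 and Cd74 at 4.76 and 4.64. Among the others Cd79a had 1 and 1 exon reads and Cr2 0 and 2. Markers of T and natural killer cells summed to an RPKM of 0.77 and 0.944 over 10 genes, those of myeloid cells to 1.97 and 2.03 over 9, and those of fibroblasts to 0.409 and 0.36 over 8. Cd3d, S100a8 and S100a9 had 0 exon reads in both.

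The regulators spanned a wide range of levels, and their order was the same in both libraries. Per length of exon, Xbp1 was highest, at 154 RPKM untreated and 158 treated, followed by Pou2af1 with 133 and 128. Irf4 had 63.05 and 63.37, and Ell2 had 52.9 and 58.5. Ikzf1 came next with 28.3 and 28.9, then Prdm1 with 7.71 and 7.91, Pou2f2 with 4.88 and 3.45, and Ikzf3 with 1.71 and 1.82. In the untreated library Xbp1 was thus 89.9 times the level of Ikzf3, Irf4 8.18 times that of Prdm1, and Ikzf1 16.5 times that of Ikzf3. Among the 9081 annotated features kept for comparison, Xbp1 ranked 193rd and Pou2af1 220th in the untreated library, and Ikzf3 ranked 7957th. The 95% Poisson intervals of neighbours in this order did not overlap in either library. The closest pair was Irf4 and Ell2 in the treated library, with 62.1 to 64.7 against 57.1 to 59.9. These levels came from 43179 exon reads of the 8 genes in the untreated library and 51418 in the treated library.

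**Figure D1:**
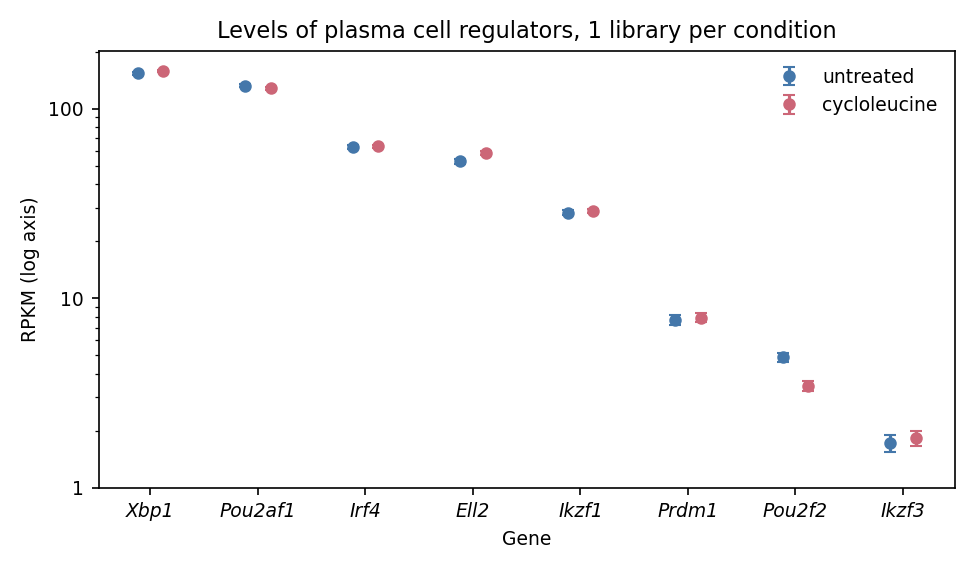
RPKM of the 8 regulators (log axis) in the untreated and the treated library, 1 point per library, with bars for the 95% Poisson interval of the exon reads. The order from Xbp1 to Ikzf3 was the same in both libraries, and the points of Pou2f2 stand apart, at 4.88 and 3.45.

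Of the 8 regulators, 7 differed by no more than 1.11-fold in exon reads between the libraries, and Pou2f2 was 1.40-fold lower after cycloleucine. Differences are given as the log2 of the cycloleucine over the untreated RPKM, with 0.1 added to each, which understates the change of low genes. The median over the 8 was 0.03, beside 0.0035 over the 9613 features kept (those with an RPKM of 1 or more in at least 1 library and 50 or more reads in all), and 6 of the 8 lay above 0 and 2 below. Scaled by total exon reads in place of gene reads, 4 lay above and 4 below, with Irf4 at -0.02 and Ikzf1 at -0.0012. At a size rule of 1.5-fold, 0 of the 8 were past it in either direction. The same rule was passed by 5.49% of the features kept, and by 0.66% of the 5606 annotated features with at least 1000 exon reads, which 7 of the 8 also had. A count of 0 is therefore near the background of features read this deeply.

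**Figure D2:**
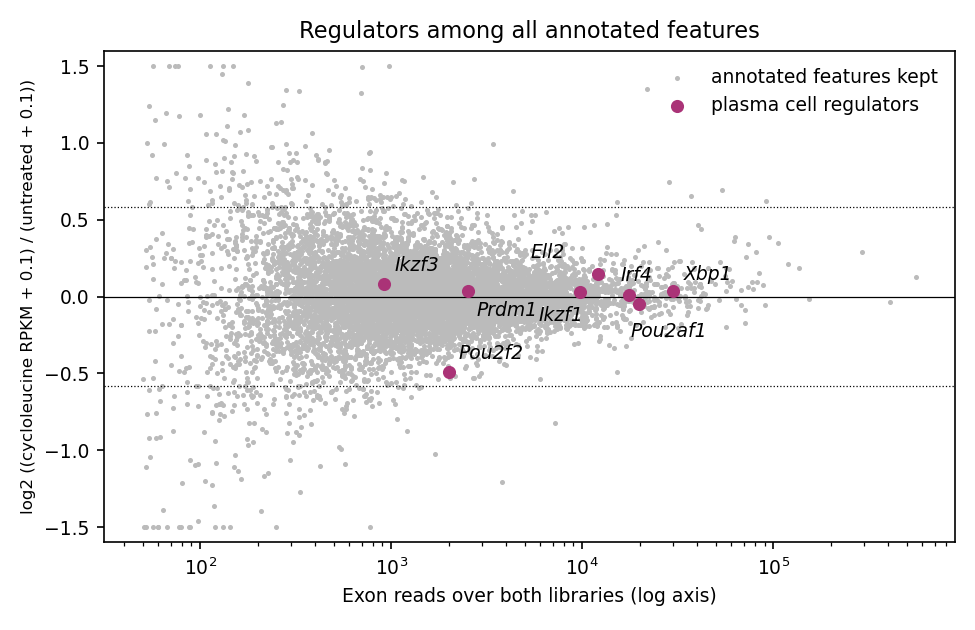
Exon reads over both libraries (log axis) against the log2 ratio of cycloleucine to untreated RPKM (0.1 added to each), for 9081 annotated features in grey and the 8 regulators in colour, with dotted lines at 1.5-fold and 23 features drawn at the limits of 1.5. Pou2f2 lies at the lower edge of features with like reads, and the others lie near 0.

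Pou2f2, the OCT2 gene (chromosome 7, 25087344 to 25159922, minus strand, mm10), showed the largest difference of the 8 in exon reads. It had 1089 exon reads in the untreated and 907 in the treated library, although the second library was the deeper one. Its RPKM of 4.88 and 3.45 gave a log2 difference of -0.49, with a counting interval of -0.63 to -0.37. Junction reads, those that span 2 joined exons and so stem from spliced RNA, were 160 and 130, a difference of -0.53 (-0.88 to -0.19) relative to all gene reads. Both kinds of read were thus lower, but junction reads are a part of the exon reads and not a separate measure of the difference. Intron reads were 464 and 483, a difference of -0.18 with an interval of -0.37 to 0.0087 that holds 0, and from uniquely placed reads the difference was -0.017. Of the 5606 features with at least 1000 exon reads, 32 lay lower than Pou2f2 (0.571%), and of the 4047 with 1000 to 4000 such reads, 29 lay as low or lower (0.717%). The gene was singled out for this after its values were seen. More than 98.5% of its exon reads were uniquely placed in both libraries (99.1% and 98.6%), and both features that overlap it, D930028M14Rik and Mir6537, had 0 reads.

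Pou2af1 (chromosome 9, 51213690 to 51240079, plus strand), whose product works with OCT2, did not share this difference. It had 9236 and 10516 exon reads, a log2 difference of -0.05 (-0.09 to -0.0084). The RPKM of Pou2af1 was 27.2 times that of Pou2f2 in the untreated library and 37.2 times in the treated library. From the exon counts, without the 0.1 added, their log2 differences were 0.45 apart (0.32 to 0.58). The junction reads of Pou2af1 were 941 and 936, a difference of -0.24 (-0.38 to -0.11), and its intron reads 864 and 1114, one of 0.13 (0.001 to 0.26). Pou2f1, which encodes the widely expressed OCT1, stood at 1.89 and 1.95 RPKM, and Pou2f3 had 0 exon reads in both libraries.

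Xbp1 and Ell2, which serve the secretory load of the cell, had exon differences above 0, and that of Xbp1 was close to 0. Ell2 (chromosome 13, 75707484 to 75772356, plus strand) had the largest difference upward of the 8, with 5229 and 6814 exon reads and a log2 difference of 0.15 (0.09 to 0.20). Its junction reads, 1166 and 1460, differed by 0.09 (-0.02 to 0.20) and its intron reads, 772 and 987, by 0.12 (-0.02 to 0.26), so that all its kinds of read lay on the same side. Xbp1 (chromosome 11, 5520659 to 5525893, plus strand) had 13574 and 16409 exon reads and a difference of 0.04 (0.0046 to 0.07). Scaled by total exon reads in place of gene reads, Xbp1 stood at 0.0071. Its junction reads went the other way, with 2509 and 2693 and a difference of -0.13 (-0.21 to -0.05). Its intron reads were few, 299 and 413, with a difference of 0.23 (0.01 to 0.45). With the scaling by gene reads, the counting interval was free of 0 in exon reads for Xbp1, Pou2af1, Pou2f2 and Ell2, 4 of the 8. That was so in 47.4% of the features with at least 1000 exon reads, so an interval free of 0 does not set these 4 apart.

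Irf4 and Prdm1, at the head of the plasma cell program, had exon differences near 0, with intervals that hold 0. Irf4 (chromosome 13, 30749226 to 30766927, plus strand) had 8064 and 9547 exon reads and a log2 difference of 0.0074 (-0.04 to 0.05). Prdm1 (chromosome 10, 44437177 to 44528501, minus strand) had 1148 and 1388 exon reads and one of 0.04 (-0.08 to 0.15). In RPKM, Irf4 stood at 8.18 times Prdm1 without treatment and at 8.01 times with it. Their intron reads parted. Irf4 had 1612 and 1672 intron reads, a difference of -0.18 (-0.28 to -0.08), and Prdm1 had 314 and 460, a difference of 0.31 (0.10 to 0.53), the highest intron value of the 8. Junction reads were 778 and 931 in Irf4 (0.02, -0.12 to 0.16) and 59 and 94 in Prdm1 (0.43, -0.05 to 0.93).

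Ikzf1 and Ikzf3, the IKAROS and AIOLOS genes, both had exon intervals that hold 0. Ikzf1 (chromosome 11, 11685003 to 11772926, plus strand) had 4432 and 5327 exon reads and a log2 difference of 0.03 (-0.03 to 0.09). Ikzf3 (chromosome 11, 98464902 to 98546031, minus strand), the lowest of the 8, had 407 and 510 and one of 0.08 (-0.10 to 0.28). In junction reads they lay apart. Ikzf3 had 34 in the untreated and 81 in the treated library, 2.01-fold more relative to all gene reads (1.34 to 3.11), and Ikzf1 had 343 and 338, a log2 difference of -0.26 (-0.48 to -0.04). Ikzf3 was the 1 of 8 regulators past 1.5-fold in junction reads, as were 9.44% of the 7811 annotated features with at least 50 such reads. Of the 3127 features with 50 to 250 junction reads, 82 had a junction difference as high as that of Ikzf3 or higher (2.62%), and it was chosen for this after its values were seen. Ikzf1 had 1589 and 1663 intron reads (-0.17, -0.27 to -0.07) and Ikzf3 had 176 and 248 (0.26, -0.03 to 0.55). The feature Gm11999 shares 398 bases with Ikzf1 and had 101 and 73 gene reads, and whether strand was used to keep them apart is not known.

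**Figure D3:**
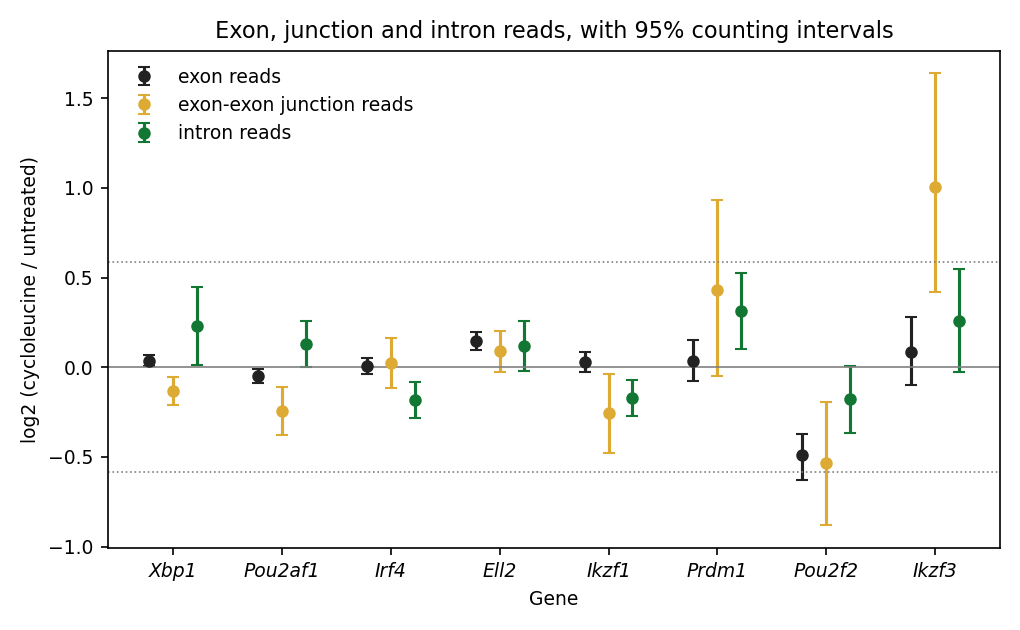
Log2 ratio of cycloleucine to untreated for exon, exon-exon junction and intron reads of each regulator, with 95% counting intervals and dotted lines at 1.5-fold. Junction reads of Ikzf3 (1.004) and of Pou2f2 (-0.53) lie farthest from 0, followed by exon reads of Pou2f2 (-0.49), and the widest intervals belong to the low junction counts of Ikzf3 and Prdm1.

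Junction reads made up between 5.14% and 22.3% of exon reads in the untreated library. Their share was 22.3% in the untreated and 21.4% in the treated library for Ell2, and 14.7% and 14.3% for Pou2f2. Both pairs have overlapping exact binomial intervals. In Xbp1 the share was 18.5% and 16.4%, in Pou2af1 10.2% and 8.90%, and in Ikzf1 7.74% and 6.35%, lower after cycloleucine in all 3, with exact intervals that overlap in Ikzf1 alone of these. In Ikzf3 it was 8.35% (5.85% to 11.5%) and 15.9% (12.8% to 19.3%), higher after cycloleucine. Irf4 had 9.65% and 9.75% and Prdm1 5.14% and 6.77%, again with overlapping intervals. The interval of the change in junction to other exon reads was free of 0 in 4 of the 8 (Xbp1, Pou2af1, Ikzf1 and Ikzf3) and in 23% of the 7811 features. Of those features 3127 had 50 to 250 junction reads, fewer than Xbp1, Pou2af1 and Ikzf1 had. More reads narrow an interval, so the 4 of 8 and the 23% are not like for like. Over all features the junction share of exon reads was 22.9% and 22.5%.

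Introns carried very different parts of the reads of these genes. In Xbp1, a short gene, introns held 2.16% of gene reads in the untreated and 2.46% in the treated library, and in Pou2af1 they held 8.55% and 9.58%. Ell2 had 12.9% and 12.7%, Irf4 16.7% and 14.9%, Prdm1 21.5% and 24.9%, and Ikzf1 26.4% and 23.8%. The highest shares were those of Pou2f2, 29.9% (27.6% to 32.2%) and 34.7% (32.2% to 37.3%), and of Ikzf3, 30.2% and 32.7%. Per kb of intron the order differed. Irf4 introns had an intron RPKM (reads scaled to intron length and library size) of 4.58 in the untreated library, 7.26% of its exon density, those of Ell2 had 0.465, 0.879% of its exon density, and those of Ikzf3 had 0.0896, 5.23% of its exon density.

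The ratio of intron to exon reads, in which a factor common to a library cancels, differed in both directions. Its log2 change was 0.32 (0.10 to 0.54; 0.46 from uniquely placed reads) in Pou2f2, 0.28 (0.04 to 0.51) in Prdm1 and 0.18 (0.04 to 0.31) in Pou2af1, and -0.20 (-0.31 to -0.09) in Ikzf1 and -0.19 (-0.30 to -0.08) in Irf4. In Xbp1 (0.19), Ikzf3 (0.17) and Ell2 (-0.03) the interval held 0. So 5 of the 8 had an interval free of 0, and so did 28.5% of the 6803 annotated features with at least 100 intron and 200 exon reads. Each of the 8 had more reads than these minimums, and more reads narrow an interval, so these shares are not like for like. All 8 values lay inside the middle 95% of those features, -0.66 to 0.72. In intron reads alone 0 of the 8 passed 1.5-fold, against 8.14% of the 9278 features with at least 100 intron reads.

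**Figure D4:**
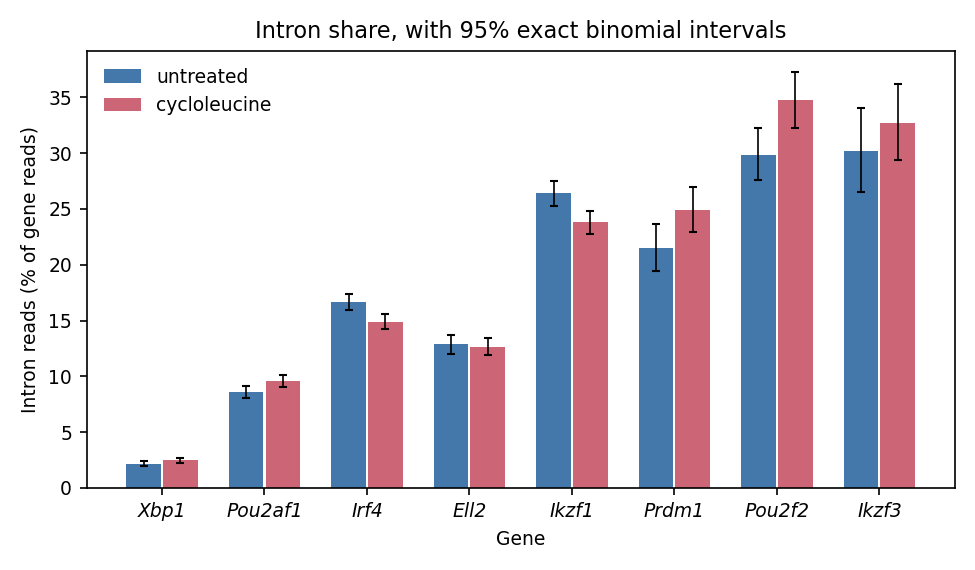
Intron reads as a percentage of all gene reads for each regulator in both libraries, with 95% exact binomial intervals. The bars run from 2.16% in untreated Xbp1 to 34.7% in cycloleucine Pou2f2, and they are lower after cycloleucine in Irf4, Ell2 and Ikzf1 and higher in the other 5.

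The table also gave how many annotated transcripts of each gene were detected, by a rule that the labels and headers do not give. The number was the same in both libraries for 7 of the 8 regulators. Among these, Pou2af1 and Ell2 have only 1 annotated transcript each, so their number had no room to differ. Both are outside the set of features behind the percentage below. In Ikzf1 it was 5 of 6 in the untreated and 2 of 6 in the treated library. It differed in 51.3% of the 6542 kept features with more than 1 annotated transcript, so such a difference is common in this table.

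Related genes were described by lists, and in none of them was a measured gene past 1.5-fold. That rule was passed by 5.49% of the features kept and by 0.66% of the annotated features with at least 1000 exon reads. Many of the listed genes were read that deeply, so the absence of genes past the rule does not set the lists apart. Of 24 other regulators of plasma cells or of their signals, 21 were measured, with a median of -0.07, 9 above 0 and 12 below. E2f2, a cell cycle transcription factor gene, came closest to the rule in this list, with 2369 and 4098 exon reads and a log2 difference of 0.55 (0.48 to 0.63). Aff3, a nuclear factor gene of the lymphoid lineage, had 222 and 194 reads and one of -0.39 (-0.72 to -0.15).

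Of 16 regulators of the B cell program, 6 were measured. Beside Id2 and Spi1 these were Ebf1 (372 and 438 exon reads), Ets1 (1108 and 1122), Etv6 (1073 and 1216) and Foxo1 (511 and 747). The other 10 were too low to measure. Pax5, the B cell identity factor that BLIMP-1 represses, had 0 and 2 exon reads, Ciita 0 and 0, Spib 3 and 4, and Bcl6 14 and 16. In introns Pax5 had 78 and 92 reads, Ciita 4 and 4, Spib 2 and 5, and Bcl6 17 and 15. A count of 0 allows up to 3 reads, or for 1 kb of exon 0.111 RPKM without and 0.0939 RPKM with treatment. The 6 measured had a median of 0.15, with Id2, an inhibitor of E proteins, at 0.51 (0.26 to 0.77) from 200 and 336 reads, and Spi1, the PU.1 gene, at 0.42 (0.08 to 0.80) from 107 and 171. Of 19 paralogs of the regulators 12 were measured, with a median of 0.10, 10 above 0 and 2 below. Irf2 stood at 0.32 (0.13 to 0.52) and Irf1, an activator of interferon-linked genes, at 0.29 (0.16 to 0.43).

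Partners of the regulator proteins lay on both sides of 0. All 12 genes of the super elongation complex and its controls, in which ELL proteins act, were measured, with a median of -0.0021, 6 above 0 and 6 below. Mllt1 was at 0.26 (0.15 to 0.37) and Eaf1, an ELL-associated factor gene, at -0.18 (-0.28 to -0.09). The NuRD remodelling complex, to which IKAROS proteins bind, had 13 of 13 genes measured and a median of -0.08, with 4 above 0 and 9 below. Its largest differences were Gatad2b at -0.28 (-0.44 to -0.12) and Mbd3 at -0.17 (-0.28 to -0.07). In the cereblon ubiquitin ligase, Crbn was at 0.14 (-0.02 to 0.30) and Cul4a at -0.31 (-0.46 to -0.18), and the median of the 5 genes was 0.0071.

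Genes that XBP1 is known to activate were spread evenly around 0. Of 25 listed, 24 were measured, 12 above and 12 below 0, and their median was 0.0013. Dnajb9, a cochaperone gene of the endoplasmic reticulum, was highest at 0.55 (0.34 to 0.79), with 255 and 444 exon reads, and Sec61b, a translocon subunit gene, was at 0.28 (0.21 to 0.34), of whose untreated exon reads 57.5% were uniquely placed. The 9 measured plasma cell markers had a median of 0.14, 7 above 0 and 2 below, with the receptor genes Cd28 at 0.53 (0.32 to 0.81) and Slamf7 at 0.35 (0.25 to 0.46). Below 0 were Sdc1, the syndecan gene that marks plasma cells, at -0.16 (-0.22 to -0.11), and Fkbp11 at -0.09. Among the 3 measured B cell markers Cd79b was at 0.06 and Cd74 at -0.04. Of the myeloid markers only Cd68 was measured, at -0.03. The 12 housekeeping controls had a median of 0.12. Hprt was at 0.36 (-0.10 to 0.87), from 60 and 92 exon reads, and Actb at 0.34 (0.32 to 0.36). The uniquely placed part of their untreated exon reads ran from 4.21% in Pgk1 to 100% in Hprt. Differences of that size were thus also present in single genes outside the plasma cell program, while the median over the 9613 features kept was 0.0035.

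**Figure D5:**
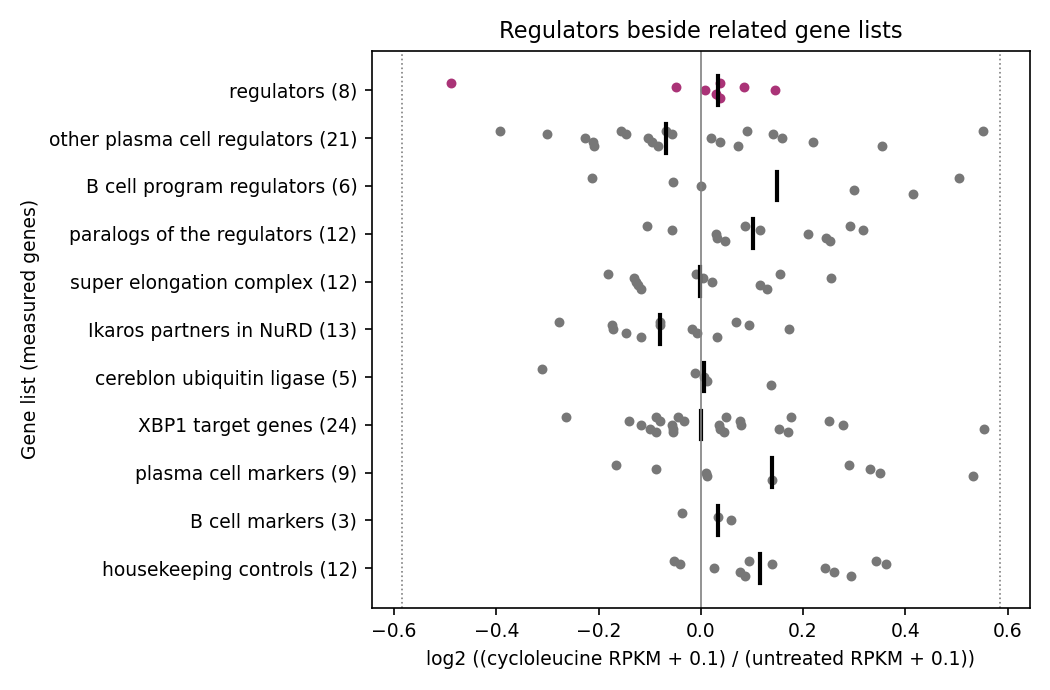
Log2 ratio of cycloleucine to untreated RPKM (0.1 added to each) of every measured gene in the regulators and in each related list with at least 3 measured genes, with a bar at the list median and dotted lines at 1.5-fold. No point lies past 1.5-fold, and Pou2f2 at -0.49 is the lowest point drawn.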

How the data were processed

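The authors deposited 1 table of 43346 features with raw read counts, total and uniquely placed, for whole genes, their exons, introns and exon junctions, and with RPKM values, per the file headers. RPKM times exon length and library gene reads returned the reads in 43346 of 43346 features of each library, within 0.02 reads plus a share of 0.0001. Per the submitters' processing notes, mm10 was the build used. The sources used here do not name the aligner, the counter, the annotation release or the use of strand. Deposited starts count from 0 and are printed plus 1.

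The 1 junction cell without a number, not of a gene described here, was filled with uniquely placed reads. Counting intervals are Clopper-Pearson intervals (exact, 95%) for the cycloleucine share of a gene's reads, scaled by library gene reads. Those of ratio changes and of differences between genes are normal approximations, with 0.5 added to each count. Reads carried no molecular identifiers, so PCR copies count more than once and intervals may be too narrow. Code (Python 3.11.15, scipy 1.17.1) was tested on simulated data. The regulators and all lists were chosen with earlier results of these data known. All 8 regulators are named, and of each other list the 2 measured genes farthest from 0, since none passed 1.5-fold. Any other gene named was chosen after its values were seen. No gene was named for a pattern like theirs, since 2 libraries give 1 difference each. Protein sequences were not used here. Of the table's columns 12, which repeat or summarise these 2 libraries, were not used. The result of 1 marker gene is not reported here.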

Additional observations from a re-analysis of the deposited data

How the results depend on the processing

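No paired analysis was possible because neither condition has a second library. Of 64 values of single regulators under other choices, 63 stayed inside their counting interval. The exception was the exon difference of Xbp1, 0.076 from uniquely placed reads, where the library totals alone shift each value by 0.034. Scaled by total exon reads, which shifts each value by -0.03, the Xbp1 difference was 0.0071, so its direction is not firm. Under the same scaling Irf4 and Ikzf1 changed sign inside their intervals, to -0.02 and -0.0012. All these choices reuse the same counts and most shift them little, so staying inside an interval is a weak check. With other scalings, pseudocounts of 1 and 0.01 and uniquely placed reads, Pou2f2 lay between -0.52 and -0.40, and the median of the 8 between 0.003 and 0.068.

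Past 1.5-fold lay 291 features upward and 237 downward, and this background was 70 and 64 at 2-fold, 2755 and 2581 with no filter, 122 and 82 above an RPKM minimum of 5, 164 and 113 above a minimum of 200 reads, and 150 and 108 with a pseudocount of 1. The balance of directions also moved, to 260 and 265 when scaled by total exon reads and to 347 and 204 from uniquely placed reads. Stricter filters enter fewer features, and leaving out the filter enters more. Ikzf3, with 115 junction reads over both libraries, is the regulator whose counts limit it most.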

Other observations

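Several relatives of the regulators were too low to be measured but had reads that leaned to 1 library. They were chosen after their values were seen, and the log2 values carry a pseudocount of 0.1 RPKM. Ell3, a paralog of Ell2, had 37 exon reads without and 13 with treatment, a log2 difference of -1.34 (counting interval -2.78 to -0.80, without the pseudocount). Of these reads 8.11% and 7.69% were uniquely placed. Ell stood at 0.12 (-0.13 to 0.37) from 239 and 306 reads. Bcl11a, a B cell zinc finger gene, had 145 and 288 reads (0.63, 0.46 to 1.05), of which 44.1% and 49.0% were uniquely placed, and Ikzf5, the most divergent gene of the Ikaros family, had 32 and 66 (0.61, 0.18 to 1.47). Zbtb32, a repressor gene of plasma cells, had 7 and 26. With 1 library per condition none of these has a replicate check.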
